A study of Mus musculus with 12 samples.

Results

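Expression of 7 genes of the cell-surface protease system was examined in the mammary gland of mice with and without the progesterone receptor: the membrane serine protease genes Tmprss2, St14 and Prss8, the Kunitz-type inhibitor genes Spint1 and Spint2, and the growth factor gene Hgf with its receptor gene Met. The members were all probe sets annotated to 1 of these symbols, 14 of the 45037 on the array that are not controls, and 7 of 18193 genes. The set was chosen by measured values of these arrays, since Tmprss2 and Spint1 were already known from them to differ between genotypes, Tmprss2 in a way that changed with time and Spint1 at 8 h. Their genotype differences, and all differences of Tmprss2, are therefore given as a description with no p, and their crossing of the threshold for a call supports nothing.

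Glands came from ovariectomized BALB/c females aged 10 weeks, either progesterone receptor null (null, from here on) or wild type. All mice had 24 h of 17β-estradiol alone (100 ng), followed by 24 h or 8 h of progesterone (2.5 ug) given with 17β-estradiol. The 4 groups were null at 24 h, wild type at 24 h, null at 8 h and wild type at 8 h, each with 3 arrays, and each array held RNA of a pool of 3 mice. No group went without progesterone, the null allele carries no further description in the labels, and the labels name the mammary gland as the source, with no separation of its cell types.

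TMPRSS2 and matriptase, the product of St14, are serine proteases anchored in the plasma membrane of epithelial cells. Prostasin, the product of Prss8, is held there by a lipid anchor, and matriptase and prostasin can activate one another. HAI-1 and HAI-2, the products of Spint1 and Spint2, are membrane-bound inhibitors of these enzymes. Matriptase is also one of the proteases that cleave the inactive HGF precursor, which stromal cells secrete, into the ligand of the receptor MET on epithelial cells. In the mammary gland HGF is known for promoting ductal branching.

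The promoter windows of Tmprss2, whose level crossed over between genotypes, and of both inhibitor genes are shown because at 24 h these genes lay in opposite directions between genotypes. Each window is RefSeq sequence of build GRCm38.p6, from 250 bases before to 50 bases after the annotated gene start, printed 5′ to 3′, and capitals mark matches to the motifs given in the next paragraph.
Tmprss2 (chr16:97611146-97611445, minus strand): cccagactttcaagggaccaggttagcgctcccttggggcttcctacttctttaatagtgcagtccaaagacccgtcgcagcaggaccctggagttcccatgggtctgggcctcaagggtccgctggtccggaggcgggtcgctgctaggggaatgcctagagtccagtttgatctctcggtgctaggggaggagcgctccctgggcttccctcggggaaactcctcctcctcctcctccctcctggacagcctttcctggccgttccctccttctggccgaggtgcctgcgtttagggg
Spint1 (chr2:119237110-119237409, plus strand): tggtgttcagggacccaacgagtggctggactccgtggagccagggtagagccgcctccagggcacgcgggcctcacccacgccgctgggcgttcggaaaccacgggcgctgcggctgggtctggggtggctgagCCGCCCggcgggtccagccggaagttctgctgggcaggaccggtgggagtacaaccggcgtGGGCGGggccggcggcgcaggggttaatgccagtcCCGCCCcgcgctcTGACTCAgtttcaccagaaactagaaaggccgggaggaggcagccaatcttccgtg
Spint2 (chr7:29281928-29282227, minus strand): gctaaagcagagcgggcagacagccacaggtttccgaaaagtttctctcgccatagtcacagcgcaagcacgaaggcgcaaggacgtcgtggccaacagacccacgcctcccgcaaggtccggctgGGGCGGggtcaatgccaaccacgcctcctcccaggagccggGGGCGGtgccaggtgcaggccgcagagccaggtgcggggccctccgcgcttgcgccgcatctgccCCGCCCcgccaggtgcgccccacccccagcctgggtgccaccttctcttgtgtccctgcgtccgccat

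Both strands were searched for 4 motifs. AGAACA, the half-site shared by progesterone, androgen and glucocorticoid receptors, occurred in none of these 3 windows and in 19.0% of 32851 mouse promoter windows of 300 bases. The spaced core ACANNNTGT occurred in none of the 3 and in 6.85% of all windows. The AP-1 motif TGACTCA had 1 match, at bases 245 to 251 of the Spint1 window, and was present in 5.20% of all windows. The GC box GGGCGG had 3 matches in the Spint1 window, 3 in the Spint2 window and 0 in the Tmprss2 window, against a share of 35.7% of windows with at least 1 match. No overlap between motifs was found in these windows. A match is a description of letters only, and its absence concerns only this window. Windows were given for 5 of the 7 genes, not for St14 or Prss8. Of those not printed, 1 of the 2 Hgf windows had 1 AGAACA match at bases 267 to 272, and the Met window had 1 TGACTCA and 3 GGGCGG matches.

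Probe sets that exceeded the median of their array on 3 or more of the 12 arrays were tested, and 10 of the 14 did so, covering all 7 genes. Those of the membrane proteases, the inhibitors and Met that were tested lay above the median on all 12 arrays. The Hgf probe set 1442884_at was kept with 6 arrays above the median, 3 of them from wild type glands at 24 h, and another Hgf probe set, 1451866_a_at, was left out with 2. The remaining ones left out, 1 each for Tmprss2, Hgf and Met, were never above the median. Levels are log2 values as deposited and can be compared between groups for 1 probe set, not between probe sets. Where groups are said not to overlap, this only describes the pool values. The share of all probe sets that separate in this way was not taken.

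Tmprss2 was high in null glands at 24 h and in wild type glands at 8 h, and low in the other groups. Probe set 1419154_at read 9.64, 10.31 and 9.75 (log2) in null pools 1 to 3 at 24 h, against 8.38, 8.66 and 8.82 in wild type pools. At 8 h it read 8.90, 8.74 and 8.67 in null pools, against 9.24, 9.37 and 9.84 in wild type pools. The genotypes did not overlap at either time, and their order was opposite. The means were 9.90 ± 0.36 in null and 8.62 ± 0.22 in wild type glands at 24 h (SD, n = 3), a level 2.43-fold higher in null glands (log2 difference 1.28, SE 0.19). At 8 h the means were 8.77 ± 0.12 in null and 9.48 ± 0.32 in wild type glands, 1.64-fold lower in null glands (log2 difference -0.72, SE 0.19).

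Other Tmprss2 probe sets had the same order of groups. Probe set 1458347_s_at read 8.99, 9.86 and 9.34 in null pools at 24 h, against 7.89, 8.34 and 8.56 in wild type pools, and 8.18, 8.28 and 8.38 in null pools at 8 h, against 9.32, 9.35 and 9.33 in wild type pools. Its levels were 2.19-fold higher in null glands at 24 h and 2.07-fold lower at 8 h. For 1449369_at the level in null glands was 1.69-fold higher at 24 h and 1.36-fold lower at 8 h. By these probe sets, too, the genotypes did not overlap at either time. Since Tmprss2 was chosen for this pattern, nothing is read from that separation. Across the 12 arrays 1419154_at correlated with 1458347_s_at at r = 0.93 and with 1449369_at at r = 0.96, which describes probe sets of 1 gene on the same RNA.

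**Figure D1:**
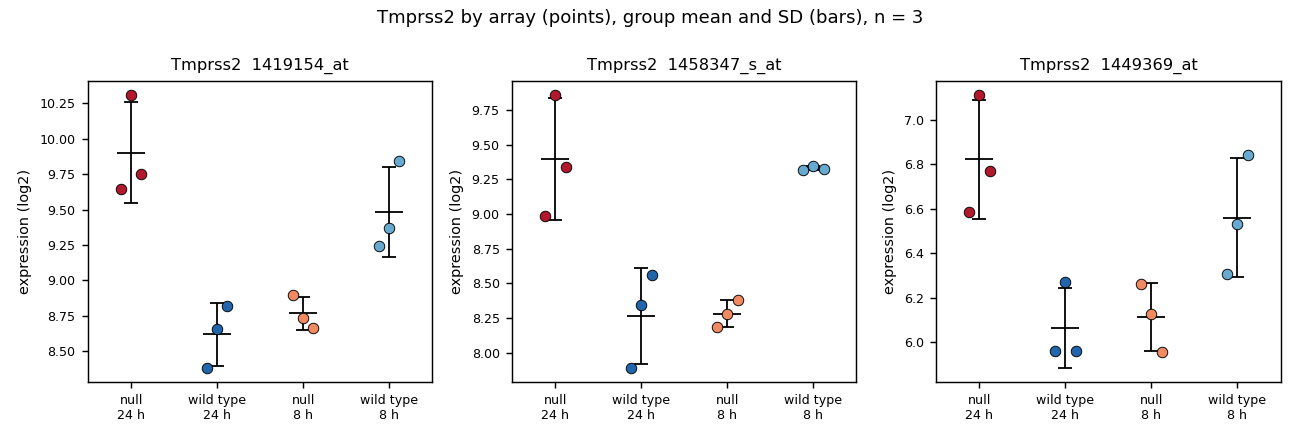
Tmprss2 expression (log2) of 3 probe sets by group, with 1 point per array and bars for the group mean and SD (n = 3). In each panel null glands at 24 h and wild type glands at 8 h lie above wild type glands at 24 h and null glands at 8 h.

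The change of the genotype difference of Tmprss2 from 8 h to 24 h was 2.00 (log2, SE 0.27) for 1419154_at, 2.18 (SE 0.28) for 1458347_s_at and 1.20 (SE 0.24) for 1449369_at. Within null glands 1419154_at was 2.19-fold higher at 24 h than at 8 h, and within wild type glands 1.82-fold lower. By group mean the order for 1419154_at was null at 24 h, wild type at 8 h, null at 8 h and wild type at 24 h. The ranges of the upper pair overlapped (9.64 to 10.31 in null pools at 24 h and 9.24 to 9.84 in wild type pools at 8 h), as did those of the lower pair.

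Spint1, the HAI-1 gene, was lower in null glands at both times. It read 6.93, 7.29 and 7.01 (log2) in null pools at 24 h, against 8.08, 7.66 and 7.99 in wild type pools. At 8 h it read 7.72, 7.54 and 7.48 in null pools, against 8.25, 8.41 and 8.37 in wild type pools. The genotypes did not overlap at either time. The level was 1.78-fold lower in null glands at 24 h (log2 difference -0.84, SE 0.13) and 1.69-fold lower at 8 h (log2 difference -0.76, SE 0.13). The change between the times was -0.08 (log2, SE 0.18), so that the point estimates at both times were close.

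Over time the difference of Spint1 lay near the threshold. The comparisons of 24 h with 8 h use the 8 h values that led to the choice of Spint1, so a call in them supports nothing. The level was 1.42-fold lower at 24 h than at 8 h in null glands, and the groups did not overlap (limma adjusted p = 0.046, n = 3 per group, adjusted over all probe sets tested). With the replicate number as a block over all 12 arrays, the limma adjusted p was 0.054. That block is shared by all groups, though only null arrays deviated together by number, so it is no paired test of null glands. Leaving out pools 1 at a time removed the call in 10 of 12 cases, all but those without wild type 24 h pool 1 or 2 (adjusted p 0.027 to 0.11). In wild type glands it lay 1.35-fold lower at 24 h than at 8 h (limma adjusted p = 0.073), which did not pass. By group mean Spint1 was highest in wild type at 8 h, followed by wild type at 24 h, null at 8 h and null at 24 h, and the middle pair overlapped (7.48 to 7.72 in null pools at 8 h and 7.66 to 8.08 in wild type pools at 24 h).

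St14, the matriptase gene, was lower in null than in wild type glands at 24 h. It read 6.70, 6.32 and 6.48 (log2) in null pools, against 7.68, 7.01 and 7.68 in wild type pools. The groups did not overlap, and wild type pool 2 lay nearest to the null pools. The level was 1.94-fold lower in null glands (log2 difference -0.96, SE 0.19, limma adjusted p = 0.033, n = 3 per group). Leaving out pools 1 at a time removed that call in 8 of 12 cases (adjusted p 0.0031 to 0.15 over the 12). These were null 24 h pools 2 (0.14) and 3 (0.089), wild type 24 h pools 1 (0.14) and 3 (0.15), null 8 h pool 2 (0.053) and each of the wild type 8 h pools (0.051 to 0.059).

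At 8 h St14 read 7.51, 7.12 and 6.99 in null pools, against 7.28, 7.37 and 7.30 in wild type pools, and the groups overlapped (log2 difference -0.11, 95% interval -0.52 to 0.30, limma adjusted p = 0.85). The change of the genotype difference between the times was -0.85 (log2, SE 0.26, limma adjusted p = 0.47) and did not pass, so the genotype effect on St14 is not shown to differ between 24 h and 8 h. Within null glands St14 lay 1.64-fold lower at 24 h than at 8 h without overlap (limma adjusted p = 0.054), and with the replicate number as a block the adjusted p was 0.031. Within wild type glands the log2 difference was 0.14 (95% interval -0.27 to 0.54).

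Spint2, the HAI-2 gene, lay lower in null glands at 24 h but was not called. Probe set 1438968_x_at read 10.23, 10.30 and 10.33 (log2) in null pools, against 10.97, 10.48 and 11.05 in wild type pools. The groups did not overlap, and wild type pool 2 was again the lowest of its group. The log2 difference was -0.55 (SE 0.13, limma adjusted p = 0.089), and the other probe set, 1451935_a_at, had -0.56 (SE 0.15, limma adjusted p = 0.12) with overlapping groups. Without wild type 24 h pool 2 both passed (limma adjusted p = 0.0044 and 0.0022), and the calls over all probe sets rose from 262 to 704. Leaving out any other pool made neither pass. At 8 h the log2 differences were -0.20 (95% interval -0.49 to 0.10) and -0.09 (95% interval -0.42 to 0.24).

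Prss8, the prostasin gene, was not called in any comparison. Its pools read 6.11 to 6.62 (log2) in null and 6.62 to 6.71 in wild type glands at 24 h, and 6.45 to 6.85 in null and 6.09 to 6.72 in wild type glands at 8 h. All these ranges overlapped between genotypes. The log2 difference was -0.27 at 24 h (95% interval -0.65 to 0.11, limma adjusted p = 0.54) and 0.20 at 8 h (95% interval -0.18 to 0.58, limma adjusted p = 0.65).

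Neither Hgf nor Met was called in any comparison. Hgf, read by 1442884_at, had 5.86, 5.77 and 5.50 (log2) in null pools at 24 h, against 6.06, 5.97 and 5.91 in wild type pools. The groups did not overlap, yet the log2 difference of -0.27 (SE 0.13) did not pass (limma adjusted p = 0.39), and all values lay close to the array medians of 5.84 to 5.91. At 8 h it had 5.90, 5.98 and 5.71 in null pools, against 5.73, 5.65 and 5.92 in wild type pools (log2 difference 0.10, limma adjusted p = 0.79).

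Met stayed within a narrow range on all arrays. Probe set 1434447_at read 9.95, 9.87 and 9.85 (log2) in null pools at 24 h, against 9.94, 9.91 and 10.10 in wild type pools, with overlap (log2 difference -0.09, 95% interval -0.27 to 0.08). At 8 h it read 9.88, 9.84 and 9.72 in null pools, against 10.07, 9.93 and 10.14 in wild type pools. These did not overlap, but the level was only 1.18-fold lower in null glands and did not pass (log2 difference -0.24, SE 0.08, limma adjusted p = 0.17).

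**Figure D2:**
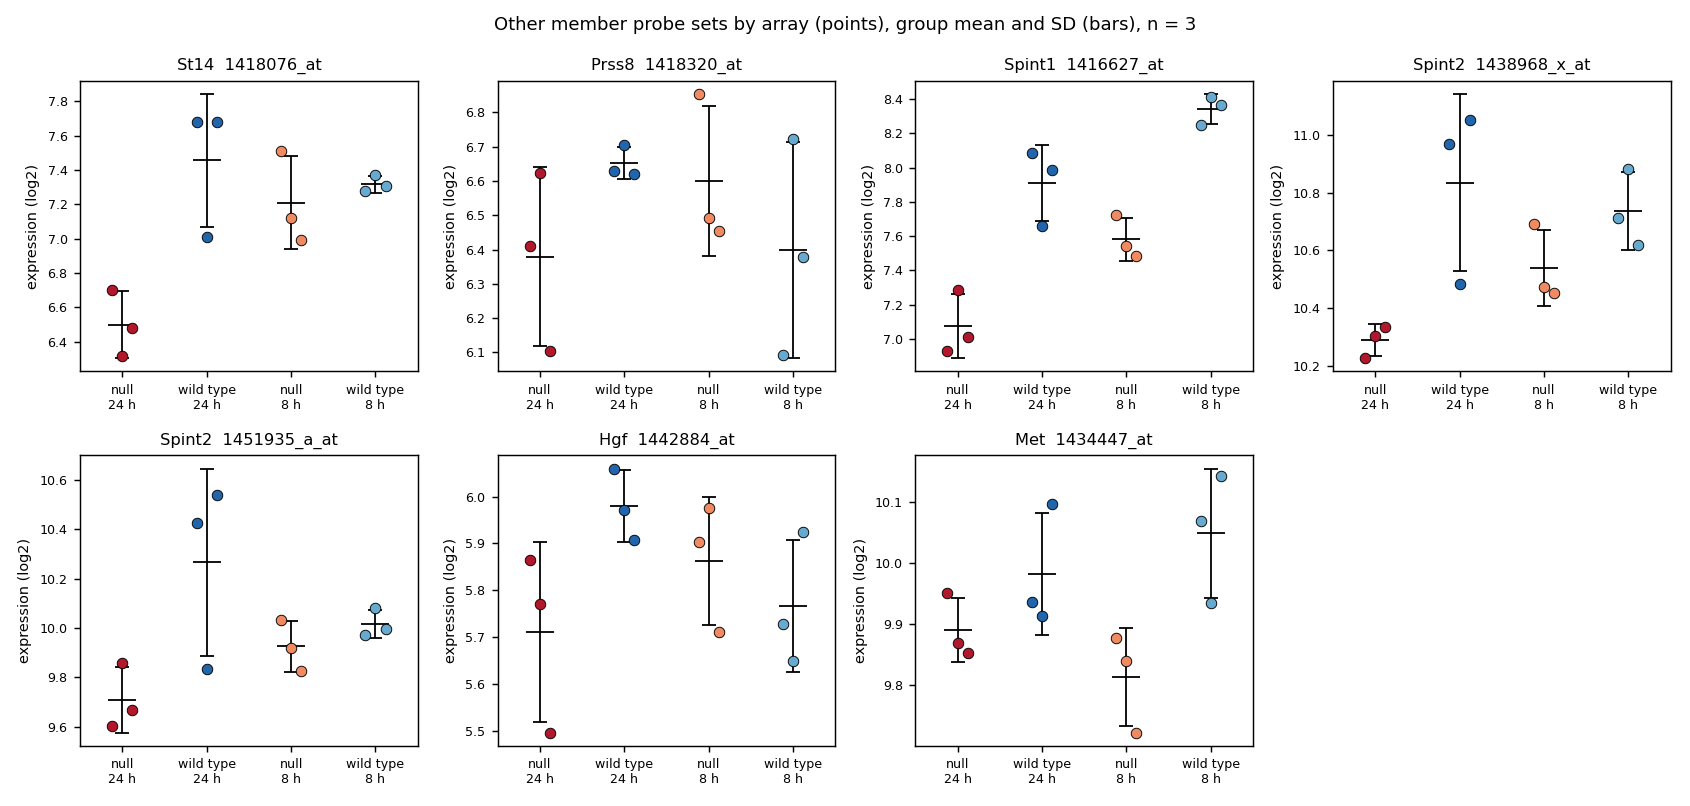
Expression (log2) of the 7 tested probe sets of St14, Prss8, Spint1, Spint2, Hgf and Met by group, with 1 point per array and bars for the group mean and SD (n = 3). Spint1 separates the genotypes at both times and St14 at 24 h. Spint2 (1438968_x_at) and Hgf at 24 h and Met at 8 h also separate them but were not called, and the groups of Prss8 overlap throughout. Separation is a description only, since its share over all probe sets was not taken.

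Among the 6 tested probe sets of St14, Prss8, Spint2, Hgf and Met, whose values did not lead to the choice of the set, 1 was called between genotypes at 24 h (St14, lower in null glands), where 1.11% of all 23709 probe sets tested were called (0.232% higher and 0.873% lower). By limma 3 of the 6 had an unadjusted p below 0.05 there, St14 and both probe sets of Spint2, which correlated with each other at r = 0.94. The share of all probe sets with an unadjusted p below 0.05 was not taken. Nothing is therefore read from this count or from the other unadjusted counts given. At 8 h limma called 0 of the 6, with 1 at an unadjusted p below 0.05, against 3.07% of all called (1.54% higher and 1.54% lower). For the change of the genotype difference limma called 0 of the 6, with 1 at an unadjusted p below 0.05, against 0.143% of all called (0.0295% positive and 0.114% negative). With Spint1 added for the comparisons of 24 h with 8 h, 1 of 7 was called in null glands (Spint1, lower at 24 h), against 4.40% of all (0.814% higher and 3.59% lower). That call supports nothing, since the 8 h values of Spint1 led to its choice. An unadjusted limma p below 0.05 was found for 2 of these 7. In wild type glands limma called 0 of the 7, with 1 at an unadjusted p below 0.05, against 5.22% of all called (1.53% higher and 3.69% lower). Over all 10 member probe sets, Tmprss2 and Spint1 included, 4 were past the threshold between genotypes at 24 h, 2 at 8 h, 2 for the change of the genotype difference, 4 for time in null glands and 2 for time in wild type glands. Nothing is read from these last counts, since the values of Tmprss2 and Spint1 led to the choice.

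**Figure D3:**
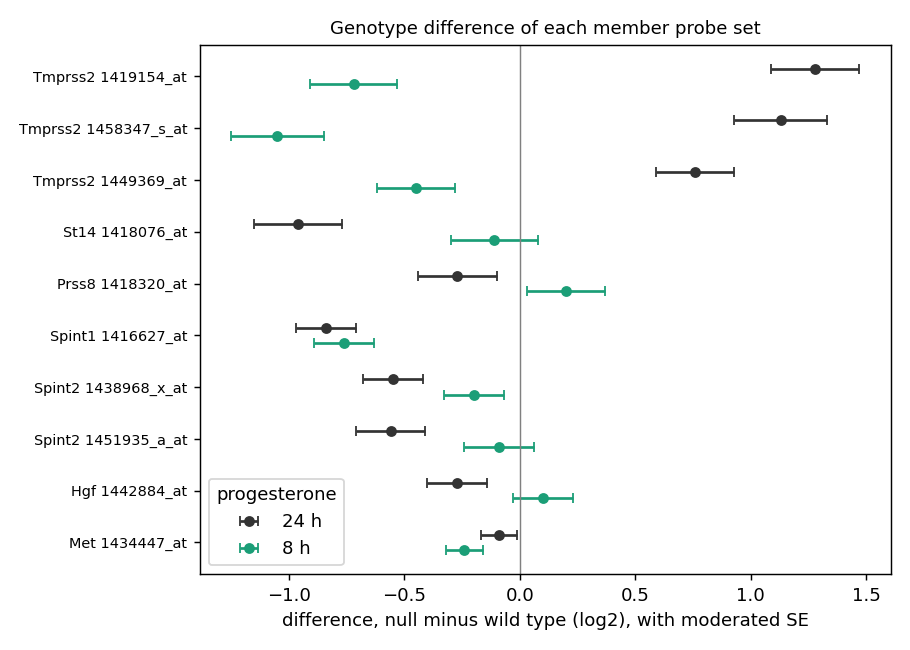
Genotype difference (null minus wild type, log2) of each of the 10 tested probe sets at 24 h and at 8 h, with bars for the moderated SE. The Tmprss2 probe sets lie above 0 at 24 h and below 0 at 8 h, while Spint1 lies near -0.84 and -0.76 at the same times.

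Epithelial markers differed between groups beside some of the members. All 12 luminal epithelial markers, such as Krt8, Epcam and Cdh1, lay above the array median on all 12 arrays. Their mean level was 8.61 to 8.84 (log2) in null pools at 24 h, against 9.03 to 9.54 in wild type pools, and 9.15 to 9.33 in null pools at 8 h, against 9.03 to 9.23 in wild type pools. At 24 h 10 of the 12 lay lower in null glands and 2 higher (Krt8 by 0.19 and Krt19 by 0.26, log2), with a median log2 difference of -0.62, against -0.01 over all genes tested. Of these, 4 were called lower and 0 higher, where 126 of all 12004 genes were called lower and 30 higher. At 8 h 0 were called lower and 3 higher, with a median of -0.02, where 191 of all genes were called lower and 170 higher. The basal epithelial markers had a mean level of 7.79 to 8.04 in null pools at 24 h, against 8.43 to 9.26 in wild type pools. In RNA of the mixed tissue fewer cells of a type and less RNA per cell cannot be told apart.

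St14, Spint1 and Spint2 lay lower in null glands at 24 h, as 10 of the 12 luminal markers did, and the part of epithelial content in those differences was not tested. Tmprss2 lay higher in null glands at that time, as Krt8 and Krt19 did and the other 10 luminal markers did not. At 8 h, where Spint1 was also lower, 7 of the 12 luminal markers lay lower in null glands and 5 higher. They ranged from Elf5 (log2 difference -0.76) to Krt8 (0.80), and the part of epithelial content was again not tested. As a description over the 12 arrays, which share the 4 groups, the luminal marker mean correlated with St14 at r = 0.89, with the Spint2 probe set 1438968_x_at at 0.78, with Spint1 at 0.61, with Met at 0.34 and with the Tmprss2 probe set 1419154_at at -0.64.

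**Figure D4:**
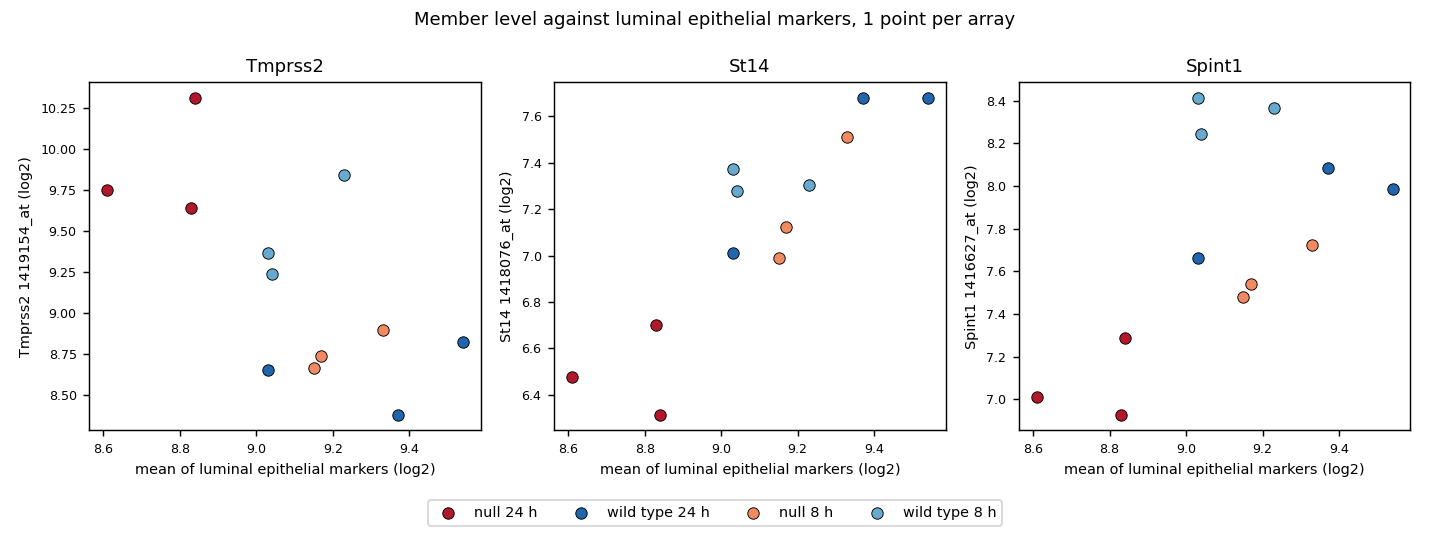
Levels (log2) of Tmprss2, St14 and Spint1 against the mean level (log2) of 12 luminal epithelial markers, with 1 point per array coloured by group. St14 is lowest in the null pools at 24 h, where the marker mean is lowest, while Tmprss2 is high there. At 8 h Spint1 is higher in wild type pools (marker mean 9.03 to 9.23) than in null pools (9.15 to 9.33), and single markers differ in both directions.

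Among the members themselves, St14 correlated with Spint2 (1438968_x_at) at r = 0.90 and with Spint1 at 0.77 over the 12 arrays, Spint1 with that Spint2 probe set at 0.81, and Tmprss2 (1419154_at) with St14 at -0.67 and with Spint1 at -0.25. The genes with the pattern most like that of Spint1 over the 12 arrays were Stc2, a secreted glycoprotein gene (r = 0.965), Oxct1, an enzyme of ketone body use (0.963), Cemip2 (0.960), the transglutaminase gene Tgm1 (0.957) and the atypical protein kinase C gene Prkci (0.957). For Tmprss2 the nearest were Tmem45b (0.834), the mitochondrial carbonic anhydrase gene Car5b (0.816), Tonsl (0.808), Snupn (0.798) and the small GTPase gene Rhof (0.769). Tmem45b averaged 12.22 in null and 11.79 in wild type glands at 24 h, and 11.71 in null and 12.12 in wild type glands at 8 h (log2).

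In 4 lists of the wider protease and MET pathway 27 genes were tested. Between genotypes 2 of the 27 were called at 24 h, both lower in null glands, where 156 of all 12004 genes were called, and 1 was called at 8 h, higher in null glands, where 361 of all genes were. Of 20 other membrane serine protease genes 17 had a probe set and 4 were tested (Hpn, Tmprss6, Tmprss13 and Prss22), and limma called 0 of these in any of the 5 comparisons, with an unadjusted p below 0.05 for 1 gene at 24 h and 1 at 8 h between genotypes and for 0 in the other comparisons. Their median log2 difference between genotypes was -0.04 at 24 h and -0.02 at 8 h, against -0.01 over all genes tested at either time. Hpn, which encodes hepsin, another protease that activates HGF, had a log2 difference of -0.36 at 24 h (limma adjusted p = 0.28). Of 14 further activators and inhibitors 5 were tested, and 1 was called, Serpinb5 (the serpin maspin), whose level in null glands at 24 h was 2.08-fold lower (limma adjusted p = 0.033). The median of these 5 was 0.00 at 24 h and 0.02 at 8 h. Plau, the urokinase gene, had a log2 difference of -0.63 at 24 h (limma adjusted p = 0.057).

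Of 8 genes taken as substrates or partners of the membrane proteases 4 were tested. Cldn7, a tight junction claudin, was 2.28-fold lower in null glands at 24 h (limma adjusted p = 0.0020) and 1.72-fold lower at 24 h than at 8 h within null glands (limma adjusted p = 0.015). Epcam, its membrane partner, had a log2 difference of -0.70 at 24 h (limma adjusted p = 0.083), and both are also among the luminal markers. Scnn1a and Scnn1b, subunit genes of the sodium channel that prostasin helps to activate, had log2 differences of 0.17 and 0.15 at 24 h and were not called. A further subunit gene, Scnn1g, was not tested. The median of the 4 was -0.28 at 24 h and 0.02 at 8 h. Of 15 relatives, co-receptors and adaptors of Met 14 were tested. The adaptor gene Shc1 had a level 1.27-fold higher in null glands at 8 h (limma adjusted p = 0.030), and Pik3r1, a regulatory subunit of phosphoinositide 3-kinase, was lower at 24 h than at 8 h in null (1.41-fold, limma adjusted p = 0.035) and wild type glands (1.43-fold, limma adjusted p = 0.027). The median log2 difference of the 14 was -0.15 at 24 h and -0.01 at 8 h between genotypes.

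Between arrays of 1 group, Pearson's r over the probe sets tested was 0.965 to 0.993. Skeletal muscle markers varied widely, with a mean level of 6.65 (log2) in null 8 h pool 2 and 9.20 to 13.07 on the other arrays. All 8 of these markers lay lower in null glands at both times, with a median log2 difference of -1.79 at 24 h and -2.18 at 8 h, and limma called 0 of them (an unadjusted p below 0.05 for 0 at 24 h and 2 at 8 h). Brown adipocyte markers had a mean level of 9.72 to 10.55 in null pools at 8 h, against 8.67 to 9.48 in wild type pools. The part of either tissue in the members' differences was not tested. Without null 8 h pool 2 the log2 difference at 8 h was -0.70 for Tmprss2 (1419154_at) and -0.74 for Spint1. The targeted gene Pgr was 1.28-fold lower in null glands at 24 h by 1 of its 2 probe sets, with overlapping groups (limma adjusted p = 0.45), and 2.08-fold lower at 8 h (limma adjusted p = 0.012). By the other probe set the null level was higher, 4.28-fold at 24 h (limma adjusted p = 9.0e-05) and 3.92-fold at 8 h (limma adjusted p = 6.0e-05). Its wild type means, 4.28 at 24 h and 4.87 at 8 h (log2), lay below the array medians of 5.84 to 5.91. The null means were 6.38 and 6.84, so these folds are set against a low wild type signal. Pgr was thus called lower in null glands at 8 h by 1 probe set and at 24 h, the time of the St14 difference, by neither.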

How the data were processed

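Expression was measured on 12 Affymetrix arrays in 4 groups of 3, assigned from the labels. The deposited log2 values form 1 table of 45101 probe sets, 64 of them controls. The authors' log2 values were judged to be on that scale, and normalized between arrays, from their range and percentiles. Per the submitters' processing notes MAS5 was used, with no role given. How signals were summarized and normalized is not given in the sources used here. Precision is limited by the number of arrays.

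Gene names came from the platform annotation (34945 with 1 symbol, 932 with several, 9160 with none), and 0 symbols changed through Entrez IDs in RefSeq (GRCm38.p6). Probe sets above the array median, taken over the whole table, on at least 3 arrays were tested (23709, for 12004 genes). Where 1 value per gene was needed, the brightest probe set on average stood for it. Tests used limma 3.58.1 in R 4.3.3 (trended prior, 4 group means, 8 residual degrees of freedom), with a call at p below 0.05 after Benjamini-Hochberg adjustment over all probe sets tested. SE is moderated. The labels call the pools biological replicates.

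The members, lists and tests were chosen with earlier results of these data known. Named genes were all members, the 5 genes nearest by Pearson r to Tmprss2, Spint1 and Hgf, the called genes of the 4 wider lists, at most 4 per list and comparison, and Pgr, with uncalled genes of those lists added for their role. Null arrays of both times that carry the same number deviated together (r 0.26 to 0.52 over the 3 pairs, above the limit of 0.1). This was taken as possible pairing for time in null glands, though the labels state none and chance was not excluded. No other pair of groups met this limit. The fits were tested on simulated data. Alternatives covered the filter, normalization, variance prior, arrays in the fit, array weights, 1 probe set per gene, a replicate block and leaving out each pool. Figures used matplotlib 3.10.9.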

Additional observations from a re-analysis of the deposited data

Results flagged for a closer look

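The genotype difference of Tmprss2 differed between the times, with every null pool above every wild type pool at 24 h and below every one at 8 h. The change of the difference (null minus wild type, 24 h minus 8 h) was 2.00 (log2) for probe set 1419154_at, 2.18 for 1458347_s_at and 1.20 for 1449369_at. Tmprss2 was chosen for this difference, so the values are a description and no p is given.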

How the results depend on the processing

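The genotype differences of Tmprss2 and Spint1 at 24 h and 8 h kept their direction under all alternatives. Nothing is read from this, since the genotypes did not overlap at either time and leaving out 1 pool could not reverse the direction. With array weights, Tmprss2 moved to 1.45 (1458347_s_at, genotype at 24 h), 2.47 (1458347_s_at, change between times) and 1.43 (1419154_at, time in null glands), log2. Spint1 over time in null glands (-0.51) was no longer called without a filter (-0.51), after quantile normalization (-0.48), without a trend in the prior (-0.51), with only the arrays compared (-0.51) or without single pools (-0.61 to -0.43), and in wild type glands it was called after array median centring (-0.46). Prss8 over time in null glands turned from -0.22 to 0.01 with array weights, and Spint2 (1438968_x_at) over time in wild type glands from 0.10 to -0.01 without wild type 24 h pool 3 (-0.01 to 0.27 over single pools left out). St14 at 24 h had an adjusted p of 0.18 with only the arrays compared. With array weights Spint2 (1438968_x_at) at 24 h and Met at 8 h passed (limma adjusted p = 0.025 and 0.035). The causes were not tested.

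Counts of member probe sets past the threshold include Tmprss2 and Spint1, so nothing is read from their size. At 24 h (4) they became 0 with only the arrays compared and 2 to 7 without single pools (at 24 h, 2 calls when null pool 2 or 3 or wild type pool 1 was left out and 7 when wild type pool 2 was). At 8 h (2) they became 4 with array weights, 1 with 1 probe set per gene and 1 to 3 without single pools (1 without null 8 h pool 1 or 2 or wild type 8 h pool 1 or 2). For the change between times (2) they became 1 with 1 probe set per gene and 1 to 2 without single pools (1 without null 8 h pool 2 or 3 or wild type 8 h pool 1). For time in null glands (4) they became 1 with only the arrays compared, 2 with 1 probe set per gene and 1 to 5 without single pools (1 without null 8 h pool 3). For time in wild type glands (2) they became 1 with only the arrays compared, 1 with 1 probe set per gene and 0 to 2 without single pools (0 without wild type 8 h pool 1 or 2).

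Over all probe sets, the 262 calls at 24 h became 71 with only the arrays compared, 685 with array weights, 165 with 1 probe set per gene and 126 to 704 without single pools (lowest without wild type 24 h pool 3, highest without pool 2). The 729 at 8 h became 4017 with array weights, 339 with 1 probe set per gene and 320 to 889 without single pools (lowest without wild type 8 h pool 1). The 34 for the change between times became 7 with the stricter filter, 169 with array weights, 10 with 1 probe set per gene and 12 to 45 without single pools (lowest without wild type 8 h pool 1). The 1044 for time in null glands became 348 with only the arrays compared, 5775 with array weights, 572 with 1 probe set per gene and 232 to 1202 without single pools (lowest without null 8 h pool 3). The 1238 for time in wild type glands became 500 with only the arrays compared, 649 with 1 probe set per gene and 239 to 1328 without single pools (lowest without wild type 8 h pool 1).

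With the replicate block, 1667 probe sets were called for time in null glands, where arrays of the same number deviated together. For genotype at 24 h 482 were called, where the arrays share only a number. The labels state no pairing. Spint1 over time in null glands kept -0.51 under the block but not its call. Counts with 1 probe set per gene are smaller because fewer probe sets are tested. Signal near the array median limits Hgf.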

Other observations

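Group means were low for the probe sets that were not tested. Tmprss2 probe set 1459510_at averaged 3.87 (log2) in null and 3.68 in wild type glands at 24 h, and 3.84 in null and 4.12 in wild type glands at 8 h. Met probe set 1422990_at averaged 4.15 in null and 4.42 in wild type glands at 24 h, and 4.18 in null and 4.25 in wild type glands at 8 h. Hgf probe set 1451866_a_at averaged 5.64 in null and 5.82 in wild type glands at 24 h, and 5.59 in null and 5.51 in wild type glands at 8 h, and Hgf probe set 1425379_at 5.07 in null and 4.93 in wild type glands at 24 h, and 4.86 in null and 4.84 in wild type glands at 8 h.

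The genes with the pattern most like that of the Hgf probe set 1442884_at over the 12 arrays were Psmd7 (r = 0.920), Rab25 (0.894), C77080 (0.877), Nfe2l3 (0.844) and Perp (0.841). Rab25, an epithelial GTPase gene, averaged 6.55 in null and 7.22 in wild type glands at 24 h, and 7.08 in null and 6.90 in wild type glands at 8 h (log2). Luminal epithelial markers correlated with this Hgf probe set at r = 0.67 over the same arrays, although Hgf is known as a stromal gene. St14 is annotated to chromosome 9, which also carries Pgr.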
